A study of Mus musculus with 2 samples.

Results

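Bcl11b, Fezf2, Tbr1, Sox5, Tle4, Foxp2, Zfpm2, Cux1, Cux2 and Bcl11a encode regulators of transcription that mark, and in part set, the layer of a cortical projection neuron. They were taken by symbol from the gene tables of E16.5 mouse forebrain, where they are 10 of 43346 genes with Ensembl identifiers, and all 10 were found in both libraries. The first 7 were treated as deep layer factors and Cux1 and Cux2 as upper layer factors. Bcl11a, which is made in neurons of deep and upper layers, was placed in neither set.

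RNA above 200 nt from the forebrain of B6NCrl embryos, taken 16.5 days into gestation, was sequenced as total RNA from 10 ng of input with ERCC spike-in RNAs added. The only group has 2 biological replicates, each a pool of tissue from male and female embryos, and the second pool came from 41 embryos. The samples used here hold no treatment, mutant, other tissue or other age, so the data give levels and their spread over 2 pools (mean ± SD, n = 2) and no test. An exact sign test on 2 libraries could not go below p = 0.5. The gene tables hold 31211128 expected counts in replicate 1 and 26957198 in replicate 2. All 4 telencephalon genes checked were present in both libraries, among them Emx1 at 47.87 TPM (a read count per effective length, scaled to a fixed library total) in replicate 1 and 50.58 TPM in replicate 2. The tissue is whole forebrain and not cortex, so striatum, thalamus and hypothalamus enter as well, and in bulk RNA fewer cells of a type and less RNA per cell cannot be told apart.

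The mouse neocortex builds its deep layers first and its upper layers later. Repression between a few nuclear factors sorts new neurons into classes: Fezf2 and Bcl11b act in neurons that project to brainstem and spinal cord, and Tbr1 in neurons that project to the thalamus. Cux1 and Cux2 mark the upper layers, where they are known for shaping dendrites and synapses, and Cux2 also marks progenitors of the subventricular zone.

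Several of these loci make more than one protein, and transcripts of 4 of them that part from each other are shown here. For Cux1, Bcl11a and Foxp2 the gene level changed with the coding end that was counted. For Bcl11b the pair shows the exon by which the coding sequences of its leading forms differ. Each pair below is read from GENCODE M21 transcripts on GRCm38, 5′ to 3′ on the transcript strand, with the last 30 coding bases that a pair shares in lower case and the next 60 bases of each in capitals. Cux1 lies on chromosome 5, 136248135 to 136567490, on the minus strand. Cux1-207 encodes CASP, a Golgi membrane protein that lacks the homeodomain, in 678 codons, and Cux1-201 encodes the homeodomain protein in 1426 codons. They share 1255 coding bases up to position 136314307.
Cux1-207: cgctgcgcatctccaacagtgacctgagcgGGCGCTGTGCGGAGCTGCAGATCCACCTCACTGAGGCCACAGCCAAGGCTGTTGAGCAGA
Cux1-201: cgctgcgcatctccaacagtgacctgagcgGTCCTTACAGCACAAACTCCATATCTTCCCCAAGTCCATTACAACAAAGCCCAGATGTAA
Cux1-211, the transcript with the largest share of the gene, has the CASP end as well. It parts from Cux1-207 after 861 coding bases, at position 136332624, and its 676 codons lack the first 6 capitals of Cux1-207.
Cux1-207: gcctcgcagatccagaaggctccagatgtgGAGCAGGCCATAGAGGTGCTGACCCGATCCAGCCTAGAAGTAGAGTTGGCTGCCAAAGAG
Cux1-211: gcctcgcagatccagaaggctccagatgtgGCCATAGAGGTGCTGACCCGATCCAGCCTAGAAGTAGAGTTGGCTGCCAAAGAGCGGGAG
Bcl11a lies on chromosome 11, 24078056 to 24174123, on the plus strand. Bcl11a-202 encodes the long zinc finger protein in 835 codons, whereas Bcl11a-204 parts from it at position 24163288 and ends after 191 codons in an exon further downstream. Before that position Bcl11a-204 has 474 coding bases, all shared, and Bcl11a-202 has 630, so their coding sequences also differ at the 5′ end.
Bcl11a-202: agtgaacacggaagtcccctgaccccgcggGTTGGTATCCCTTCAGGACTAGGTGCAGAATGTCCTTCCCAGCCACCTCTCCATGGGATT
Bcl11a-204: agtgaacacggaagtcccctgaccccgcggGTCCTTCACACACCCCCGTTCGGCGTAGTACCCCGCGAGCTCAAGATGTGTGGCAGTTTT
Bcl11b lies on chromosome 12, 107910403 to 108003602, on the minus strand. Bcl11b-201 has an exon that Bcl11b-203 skips, with 884 and 812 codons, and both end at the same stop.
Bcl11b-201: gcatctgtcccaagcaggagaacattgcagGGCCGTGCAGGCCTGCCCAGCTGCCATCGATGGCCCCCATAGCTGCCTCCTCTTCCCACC
Bcl11b-203: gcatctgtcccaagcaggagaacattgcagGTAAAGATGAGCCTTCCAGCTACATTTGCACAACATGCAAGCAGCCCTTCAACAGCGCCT
Foxp2 lies on chromosome 6, 14901349 to 15441977, on the plus strand. Foxp2-207 encodes the forkhead protein in 714 codons, and Foxp2-203 runs on past the splice site at position 15197128 and stops after 83 codons.
Foxp2-207: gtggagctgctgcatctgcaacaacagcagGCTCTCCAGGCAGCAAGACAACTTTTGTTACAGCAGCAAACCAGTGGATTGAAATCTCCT
Foxp2-203: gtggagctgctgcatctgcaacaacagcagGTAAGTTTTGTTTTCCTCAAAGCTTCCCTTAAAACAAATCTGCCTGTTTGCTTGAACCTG

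The deep layer set spanned a wide range of levels. Sox5, a SoxD factor of subplate and deep layer neurons that times their production, had 190.57 TPM in replicate 1 and 179.04 in replicate 2 (chromosome 6, 143828425 to 144781977, minus strand). Its level exceeded that of 96.1% of 21474 protein-coding genes. Bcl11b, a zinc finger factor of subcerebral projection neurons that is also made in striatal projection neurons, had 67.21 TPM in replicate 1 and 73.74 in replicate 2. Fezf2, the zinc finger repressor that specifies subcerebral projection neurons, had 66.06 TPM in replicate 1 and 73.73 in replicate 2 (chromosome 14, 12342094 to 12348189, minus strand). Bcl11b and Fezf2 did not differ beyond the spread of their libraries, and both were higher in replicate 2.

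Tbr1, the T-box factor of layer VI and subplate neurons, had 35.14 TPM in replicate 1 and 42.33 in replicate 2 (chromosome 2, 61802930 to 61814114, plus strand). Foxp2, a forkhead factor of layer VI, striatum and thalamus, had 36.60 TPM in replicate 1 and 29.56 in replicate 2. Tle4, a Groucho corepressor made in layer VI, had 30.50 TPM in replicate 1 and 31.81 in replicate 2 (chromosome 19, 14448150 to 14598051, minus strand). Tbr1 was the higher of these genes in replicate 2 and Foxp2 in replicate 1, so their order was not fixed. Zfpm2, a zinc finger cofactor of GATA factors that marks corticothalamic neurons, was the lowest of the 10 genes with 8.74 TPM in replicate 1 and 12.86 in replicate 2 (chromosome 15, 40655035 to 41104592, plus strand). Even so, its level exceeded that of 59.0% of protein-coding genes.

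Of the upper layer factors, Cux1 had 114.10 TPM in replicate 1 and 118.79 in replicate 2. Its relative Cux2 had 26.85 TPM in replicate 1 and 30.72 in replicate 2 (chromosome 5, 121856366 to 122050102, minus strand). Cux1 stood above Cux2 by 1.98 ± 0.09 on the log2(TPM + 1) scale. Bcl11a, a zinc finger factor of deep and upper layer neurons, was the highest of the 10 genes with 196.04 TPM in replicate 1 and 206.78 in replicate 2. It exceeded its paralog Bcl11b by 1.53 in replicate 1 and 1.48 in replicate 2 on the same scale.

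**Figure D1:**
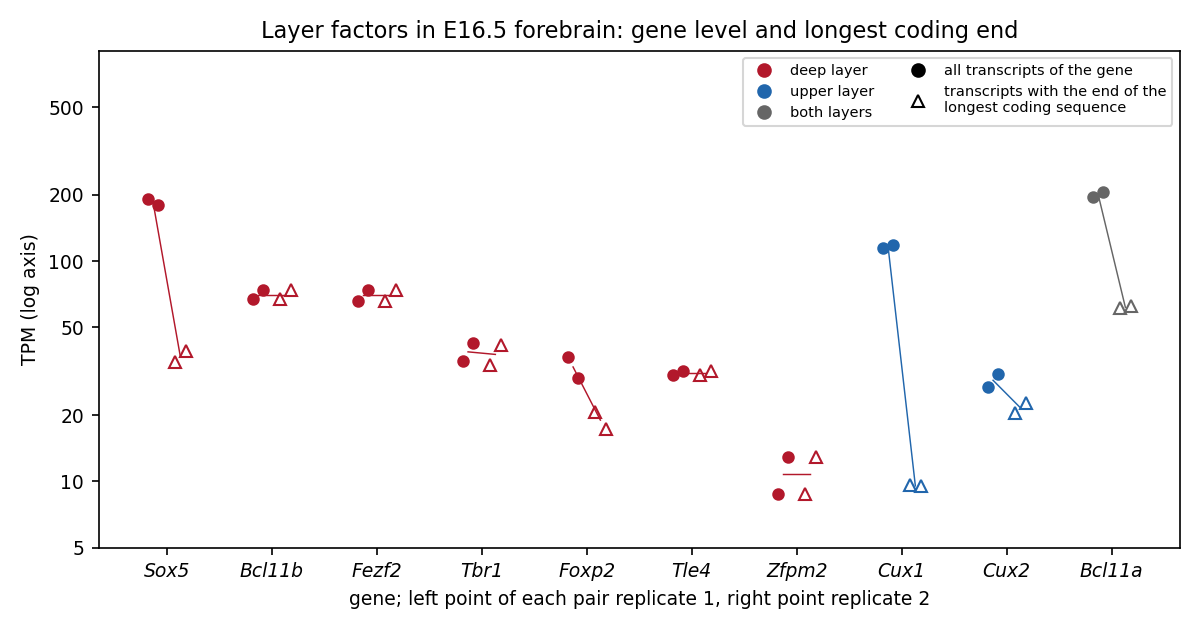
Level of each gene in TPM (log axis), deep layer factors first, then upper layer factors, then Bcl11a; circles are gene TPM and open triangles the summed TPM of transcripts that end at the stop of the longest coding sequence, the left point of each pair being replicate 1 and the right replicate 2. The triangles lie far below the circles for Sox5, Cux1 and Bcl11a and level with them for Bcl11b, Fezf2, Tle4 and Zfpm2.

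Of the 10 genes, 9 reached 10 TPM in both libraries, against 40.9% of protein-coding genes and 21.2% of all genes. Zfpm2 was the exception, being under 10 TPM in replicate 1. By mean level the order was Bcl11a, Sox5, Cux1, Bcl11b, Fezf2, Tbr1, Foxp2, Tle4, Cux2 and Zfpm2. Neighbours in that order were held to differ when their libraries did not overlap and their means lay apart by more than 3 times their root mean square SD. By that rule 4 of the steps held: Sox5 was 1.59 times Cux1, Cux1 was 1.65 times Bcl11b, Fezf2 was 1.80 times Tbr1 and Cux2 was 2.67 times Zfpm2. Bcl11a and Sox5, Bcl11b and Fezf2, and the run of Tbr1, Foxp2, Tle4 and Cux2 did not differ beyond their spread.

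Whether deep or upper layer factors were higher depended on the summary used. The mean of log2(TPM + 1) was 5.49 over the 7 deep layer factors and 5.82 over the 2 upper layer factors in replicate 1. In replicate 2 it was 5.59 for deep and 5.95 for upper layer factors. Deep minus upper was thus -0.34 in replicate 1 and -0.35 in replicate 2, close to each other, with the deep layer set lower in both. The set sums ran the other way, with 434.82 and 443.07 TPM for the deep layer factors in replicates 1 and 2 and 140.95 and 149.51 TPM for the upper layer factors, but the sums cover unequal numbers of genes. Counting Bcl11a as a deep layer factor brought the difference to -0.080, and counting it as an upper layer factor to -0.94.

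The deposited transcript tables changed this picture. A gene's TPM sums over its transcripts, and each transcript's TPM is its count divided by its effective length, so a short transcript with few counts can carry a large TPM. For each gene, the TPM of the transcripts that end at the stop of its longest coding sequence was summed apart from the rest. The rest are transcripts with another or an open coding end and those with no annotated protein, which include retained introns and transcripts marked for nonsense-mediated decay. This sum was chosen after the transcript values had been seen. On it the mean log2 level was 5.02 over the deep and 3.92 over the upper layer factors in replicate 1, and 5.17 over the deep and 3.98 over the upper layer factors in replicate 2. Deep minus upper became 1.10 in replicate 1 and 1.19 in replicate 2, the opposite sign of the gene-level difference. The upper layer set has only 2 genes, and most of the fall in its mean came from Cux1. Mean TPM went from 116.4 to 9.55 for Cux1, but only from 28.8 to 21.6 for Cux2. The changed sign is thus largely a result about Cux1 and not about upper layer factors as a set. A minimum transcript length of 1000 nt alone, also chosen after seeing the data, left deep minus upper at -0.28.

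As a ratio of coding end to gene TPM, Cux1 moved most. Transcripts with the CASP end held 72.3% of Cux1 TPM in replicate 1 and 74.6% in replicate 2, which came to 82.50 TPM in replicate 1 and 88.67 in replicate 2. Transcripts with the homeodomain end held 8.41% in replicate 1 and 8.01% in replicate 2, or 9.59 TPM and 9.51 TPM. By expected counts, which do not divide by length, the homeodomain end held 20.9% in replicate 1 and 22.0% in replicate 2, and the CASP end 67.3% and 69.3%. The CASP end was thus the larger on both scales. On the homeodomain end alone, Cux1 at 9.55 ± 0.0566 TPM had the lowest mean of the 10 genes, not beyond the spread of Zfpm2, which was lower in replicate 1. It lay below Cux2, which had 21.6 ± 1.57 TPM on its own homeodomain end.

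Within the CASP end, Cux1-211 made up 50.39% of the gene in replicate 1 and 53.39% in replicate 2. Cux1-207 made up 15.49% in replicate 1 and 18.08% in replicate 2. The 2 transcripts differ by the few bases shown above, and the deposited TPM intervals for Cux1-207 were wide, running from 10.9 to 22.6 TPM in replicate 1 and from 10.8 to 27.7 TPM in replicate 2. For Cux1-211 they ran from 49.4 to 60.3 TPM in replicate 1 and from 52.9 to 67.5 TPM in replicate 2, above those of Cux1-207 in both libraries. The level covered by these intervals is not stated. Cux1-208, an 805 nt fragment with an open coding end, reached 10.97% of the gene in replicate 2, and 91.1% of its exonic bases lie in transcripts with the homeodomain end, whose 5′ exons the CASP transcripts share.

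**Figure D2:**
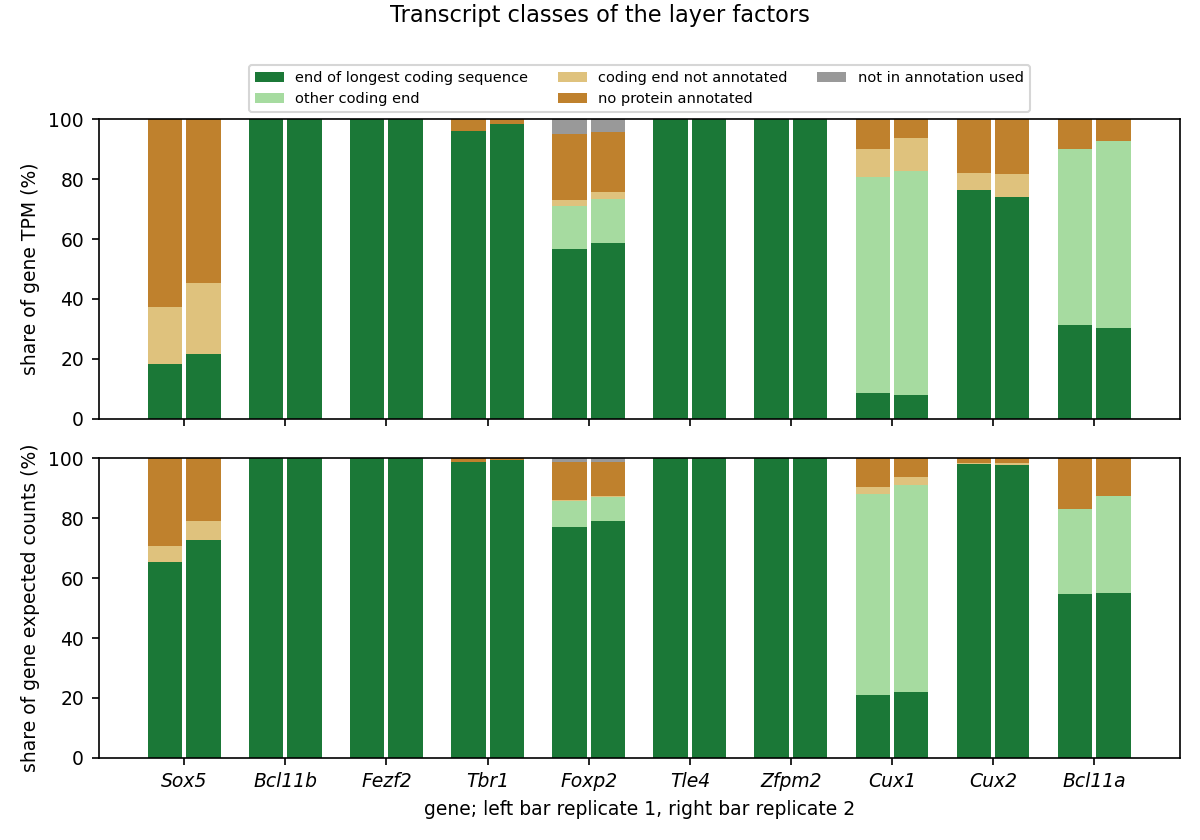
Share of each gene's TPM (upper panel) and expected counts (lower panel) by coding end, in percent, with replicate 1 as the left and replicate 2 as the right bar; deep layer factors come first, then Cux1 and Cux2, then Bcl11a. Transcripts that end at the stop of the longest coding sequence average 8.21% of TPM for Cux1 and 20.0% for Sox5, but 69.0% of the counts of Sox5.

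Sox5 showed the widest gap between TPM and counts. Sox5-208, a 351 nt transcript with no annotated protein, held 31.99% of the gene in replicate 1 and 31.11% in replicate 2. That came to 60.97 TPM in replicate 1 and 55.70 in replicate 2, from 288.37 and 221.23 expected counts. Sox5-201, which encodes the long SOX5 protein of 763 codons in 7243 nt, had 2803.02 expected counts in replicate 1 and 2729.56 in replicate 2 but 20.91 TPM and 24.24 TPM. The transcript with the far smaller count thus led the gene in TPM. Transcripts under 1000 nt together held 61.2% of Sox5 TPM in replicate 1 and 63.6% in replicate 2, against 12.3% and 12.5% of its counts.

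Most exonic bases of those short Sox5 transcripts also lie in the long coding ones. The share was 86.6% for Sox5-208 and 100% for Sox5-211, a 669 nt transcript that held 18.97% of the gene in replicate 1 and 21.89% in replicate 2. The retained intron Sox5-207 held 11.20% in replicate 1 and 8.01% in replicate 2, and the 633 nt Sox5-213 held 10.29% and 8.97%. Transcripts with the long SOX5 end summed to 34.75 TPM in replicate 1 and 38.91 in replicate 2. Some transcripts in that sum are longer in the deposited tables than in M21. On that sum Sox5 ranked beside Tbr1 and Tle4 and no longer beside Bcl11a.

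Bcl11a was led by the short-ended Bcl11a-204, with 49.89% of the gene in replicate 1 and 51.43% in replicate 2. Bcl11a-202, the long zinc finger form, held 31.16% in replicate 1 and 30.13% in replicate 2. By expected counts the order turned: Bcl11a-202 had 54.6% of the gene's counts in replicate 1 and 55.1% in replicate 2, and Bcl11a-204 had 20.9% and 22.5%. The long form alone stood at 61.09 TPM in replicate 1 and 62.30 in replicate 2, near the gene levels of Bcl11b and Fezf2. Of the 1505 exonic bases of Bcl11a-204, 38.2% lie in Bcl11a-202. The others are not all its own, since a form of 773 codons also runs into the exon at position 24172699. That form shares 2230 coding bases with Bcl11a-202 but ends at another stop, so it is not in the long form level. It held 8.13% of the gene in replicate 1 and 9.79% in replicate 2.

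**Figure D3:**
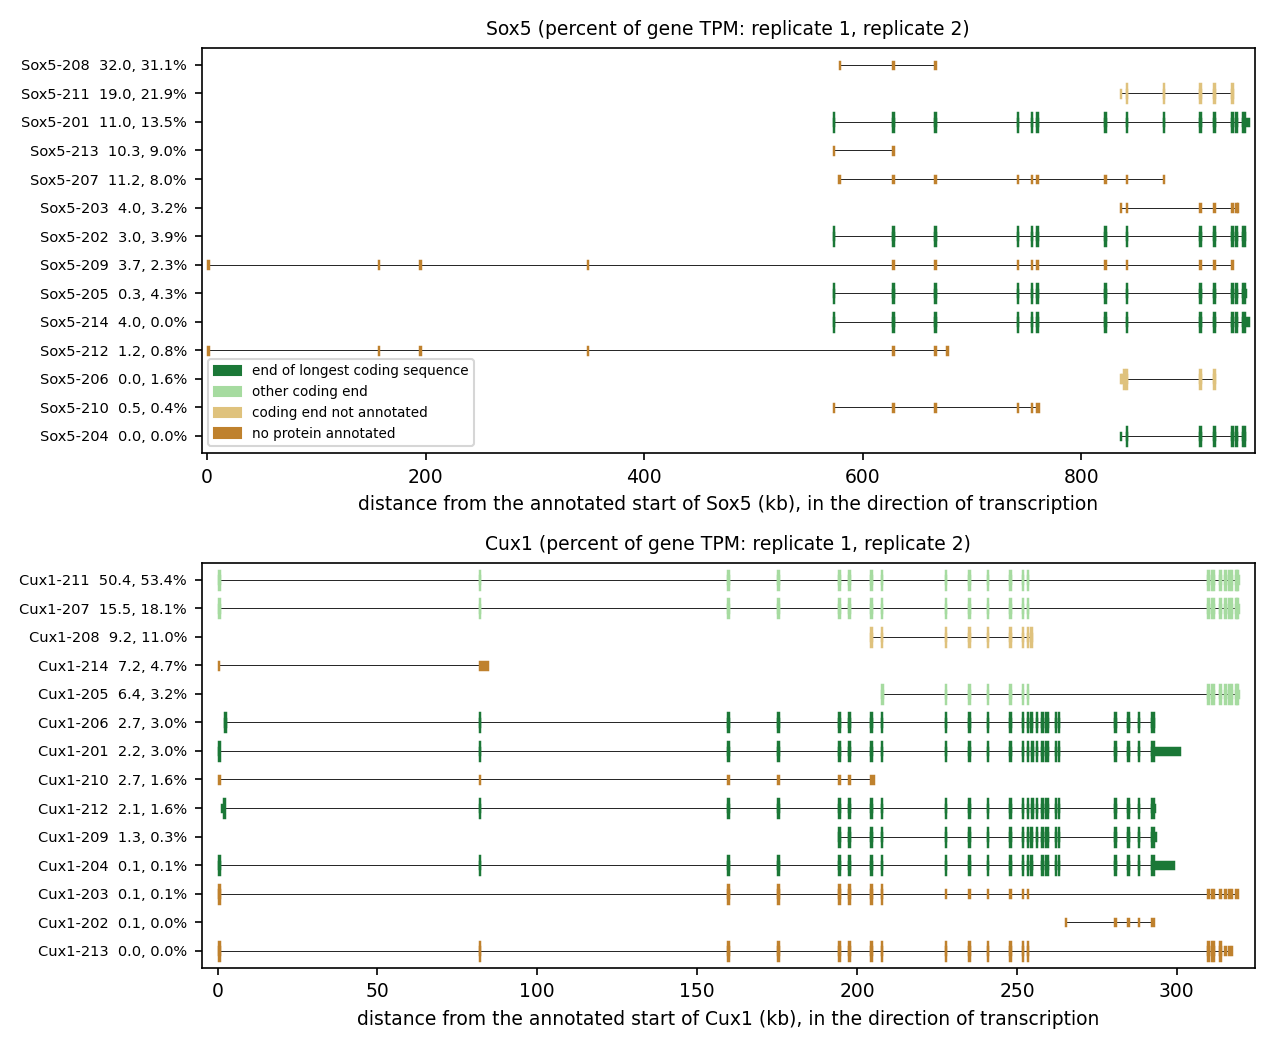
Exons of the listed transcripts of Sox5 and Cux1 against distance in kb from the annotated start of the gene, in the direction of transcription; tall boxes are coding, low boxes are not, very short exons are widened to be visible, colour gives the class of the coding end, and the percent of gene TPM in replicate 1 and replicate 2 stands beside each name. Cux1-211 and Cux1-207 share 5′ exons with Cux1-201 and end in a separate group of exons downstream, and Sox5-208 has 3 exons near the start of Sox5-201.

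The remaining genes kept their levels on the full coding end or lost less. Bcl11b-201 held 64.25% of its gene in replicate 1 and 62.28% in replicate 2. Bcl11b-203, which lacks the exon shown above, held 34.45% and 36.95% and was the lower of the pair in both pools. The pair also differs at the 3′ end, with 8111 nt for Bcl11b-201 and 2888 nt for Bcl11b-203. Their split thus does not measure use of the exon alone. Foxp2-207 held 37.51% in replicate 1 and 41.65% in replicate 2, and the truncated Foxp2-203 held 14.58% and 13.84%. Foxp2-201, which has the same 714 codons as Foxp2-207, held 12.93% in replicate 1 and 11.62% in replicate 2. Transcripts with the forkhead end summed to 20.68 TPM in replicate 1 and 17.30 in replicate 2. Tbr1-201 held 95.65% in replicate 1 and 98.21% in replicate 2, and Tle4-201 held 86.27% and 88.68%, with the rest of Tle4 in Tle4-202, which has the same coding end. Fezf2 and Zfpm2 have 1 listed transcript each. In all 8 genes with more than 1 listed transcript the leading one was the same in both pools, as it was for 92.8% of all genes at 10 TPM or more with several transcripts.

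Cux2-202, which encodes the homeodomain protein in 1426 codons, held 76.34% of Cux2 in replicate 1 and 73.69% in replicate 2. Transcripts of Cux2 under 1000 nt held 23.6% of its TPM in replicate 1 and 26.0% in replicate 2 but 2.00% and 2.27% of its counts. Cux2 has 2 start sites in the RefSeq promoter table for GRCm38.p6. The 250 bases before each site are shown because the transcripts that start near them differed in level. CG dinucleotides are in capitals. The first, chr5:122049852-122050101 on the minus strand, lies near the annotated starts of Cux2-202 and Cux2-207. The other, chr5:122047826-122048075 on the same strand, lies near those of Cux2-201 and Cux2-203. Each window ends just before the start of Cux2-202 or Cux2-201. It does not precede the other transcript: Cux2-207 starts at 122050102, upstream of the first window, and Cux2-203 at 122047891, inside the other.
Cux2 start 122049851: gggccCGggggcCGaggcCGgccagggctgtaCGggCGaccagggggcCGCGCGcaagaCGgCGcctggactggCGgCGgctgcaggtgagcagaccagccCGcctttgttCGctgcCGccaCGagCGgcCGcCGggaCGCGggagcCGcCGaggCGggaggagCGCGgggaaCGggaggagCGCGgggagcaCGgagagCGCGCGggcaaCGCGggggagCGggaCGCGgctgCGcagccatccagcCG
Cux2 start 122047825: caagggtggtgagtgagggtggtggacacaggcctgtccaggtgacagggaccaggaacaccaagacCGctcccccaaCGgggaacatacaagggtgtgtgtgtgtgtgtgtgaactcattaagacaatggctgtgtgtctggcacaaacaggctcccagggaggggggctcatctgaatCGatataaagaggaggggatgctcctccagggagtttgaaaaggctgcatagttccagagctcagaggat
The first has 80.0% G and C and 40 CG dinucleotides and no TATAAA on either strand. The other has 55.2% G and C and 3 CG dinucleotides, and TATAAA on the sense strand. Over all 32851 promoter entries the medians were 52.4% G and C and 6 CG dinucleotides, and 12.37% held TATAAA on either strand. Cux2-201 held 0% of the gene in replicate 1 and 0.26% in replicate 2. Cux2-203 held 2.46% and 4.94%, from 3 and 5.79 expected counts. The listed transcripts near the first start thus led in both pools. Cux2-202 and Cux2-201 also differ at the 3′ end, at 121856366 and 121860216, so their shares do not measure start use alone. Start positions are those of GENCODE M21, in which Cux2-202 is longer than in the deposited table.

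On the coding end sums the order of the genes was Bcl11b, Fezf2, Bcl11a, Tbr1, Sox5, Tle4, Cux2, Foxp2, Zfpm2 and Cux1. By the rule above, 3 steps held: Bcl11a above Tbr1, Tle4 above Cux2, and Foxp2 above Zfpm2. The deep layer factors summed to 261.71 TPM in replicate 1 and 290.01 in replicate 2, and the upper layer factors to 30.09 TPM and 32.23 TPM. On this scale 8 of the 10 genes reached 10 TPM in each library. The share over all genes was not computed on this scale, so that count has no background beside it.

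The ratio of the 2 pools was taken for each gene. After trimmed mean scaling of expected counts, none of the 10 differed 2-fold, against 1.37% of 13927 genes with a mean of 50 counts or more, and none differed 1.5-fold, against 6.59%. With shares this low over all genes, a count of 0 in 10 says nothing particular of these genes. Their median log2 ratio of replicate 1 over replicate 2 was -0.08, against -0.01 over all those genes, whose central 95% ran from -0.53 to 0.76. Zfpm2 was furthest from 0 at -0.54, just outside that central range, with a 95% counting interval from -0.68 to -0.40. Tbr1 followed at -0.28 (-0.36 to -0.20), and Foxp2 went the other way at 0.28 (0.20 to 0.36). These intervals cover counting error and not the spread between pools. Of the 10 genes, 3 had a ratio above 0 and 7 below, where 47.9% of all genes were above 0. Sox5 at 0.01 and Bcl11a at 0.003 were level between the pools. Scaled to the spike-ins, the ratio of all genes shifted by -0.55, and all 10 ratios became negative, Foxp2 with -0.27 and Zfpm2 with -1.09.

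**Figure D4:**
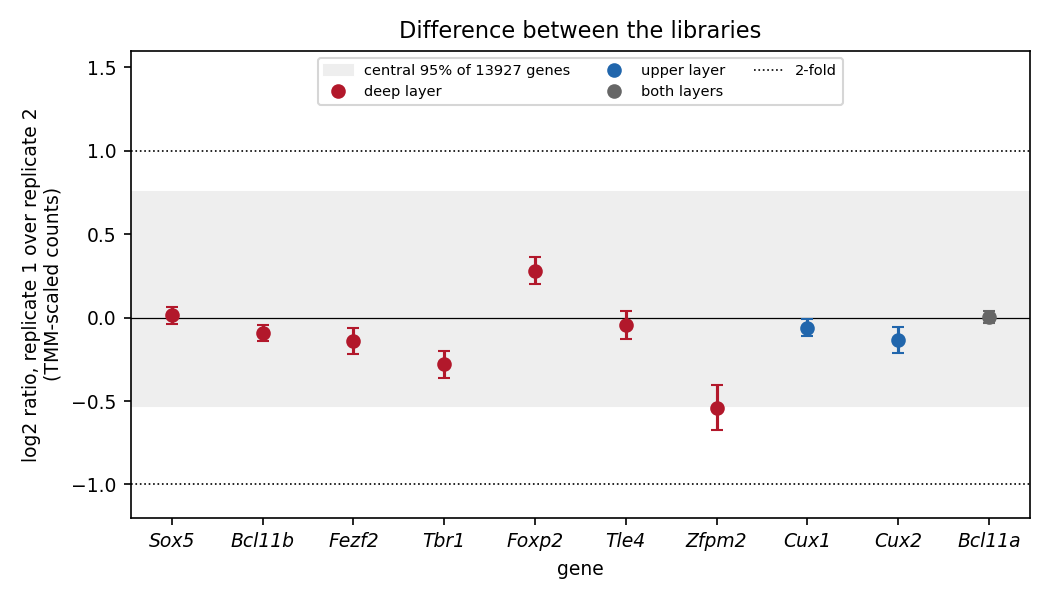
Log2 ratio of replicate 1 over replicate 2 for each gene, from counts after trimmed mean (TMM) scaling, with 95% counting intervals; grey marks the central 95% of 13927 genes and dotted lines mark 2-fold. All 10 genes lie inside 2-fold and 9 inside the grey band, with Zfpm2 just below it at -0.54 and Foxp2 highest at 0.28.

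Marker genes of several forebrain cell types differed between the pools as well. The directions counted here are after trimmed mean scaling, and spike-in scaling lowers each ratio by the shift just given. Foxp2 is also a gene of striatum and thalamus, and Bcl11b of striatum. Their log2 ratios had opposite signs, 0.28 for Foxp2 and -0.09 for Bcl11b. The 14 striatal projection neuron genes, led by Meis2 and Foxp1 and with Zfp503 lowest, summed to 550.53 TPM in replicate 1 and 501.13 in replicate 2, and 13 of the 14 were higher in replicate 1. Thalamus genes, led by Tcf7l2 at 48.76 TPM in replicate 1 and 22.46 in replicate 2, summed to 95.85 TPM in replicate 1 and 56.88 in replicate 2, with 6 of 6 compared higher in replicate 1. Genes of glutamatergic cortical neurons summed to 591.97 TPM in replicate 1 and 722.83 in replicate 2, with 5 of 6 higher in replicate 2. Radial glia genes were higher in replicate 2 in 8 of 8 cases, and meningeal genes summed to 194.33 TPM in replicate 1 and 454.15 in replicate 2. The 12 genes of interneurons and ganglionic eminences were split, with 7 higher in replicate 1 and 5 in replicate 2. Over all genes with a mean of 50 counts or more, 47.9% were higher in replicate 1. The part of tissue makeup in the ratios of the 10 genes was not tested. Without Bcl11b and Foxp2, deep minus upper was -0.38.

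Other genes known from the same layers were measured beside these factors. Of 14 other deep layer and subplate genes, 9 reached 10 TPM in each library. Their median was 30.7 TPM, against 38.7 TPM for the 7 deep layer factors. Rprm, a layer VI marker, was the highest at 246.21 TPM in replicate 1 and 263.09 in replicate 2, and Cplx3, a marker of mature subplate, was the lowest at 0.04 TPM and 0.07 TPM. Of 13 other upper layer genes, 10 reached 10 TPM in both, with a median of 18.3 TPM, and Lmo4, a LIM-only cofactor, was the highest at 162.71 TPM in replicate 1 and 145.50 in replicate 2.

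Within the deep layer set, Fezf2 stood above Tbr1 in both libraries, by 0.84 ± 0.07 on the log2(TPM + 1) scale.

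**Figure D5:**
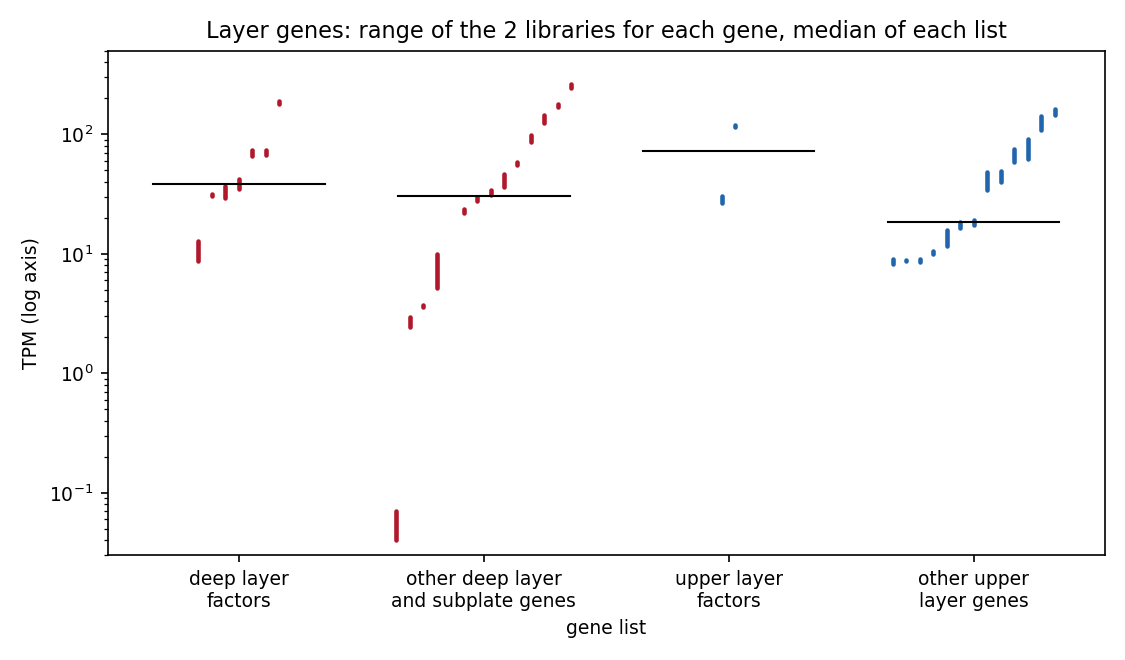
TPM (log axis) of each gene in the deep layer factors, other deep layer and subplate genes, upper layer factors and other upper layer genes; each short bar spans the 2 libraries of 1 gene and each black line is the median of the list. The medians are 38.7, 30.7, 72.6 and 18.3 TPM in that order, and Cplx3 lies far below the other genes.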

How the data were processed

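Total RNA-seq of forebrain was deposited as 1 gene table and 1 transcript table per library, for 2 biological replicates of 1 group. Reads were mapped to mm10 and quantified on GENCODE M4, per the notes deposited with each sample. Aligner and quantification program were not given in the sources used here. As estimates per gene and transcript, the authors deposited expected counts without normalization, TPM, FPKM and each transcript's percent of its gene, per the file headers. The deposited bounds of the TPM intervals are treated as a signal whose level is not stated, per the file headers. Spike-ins lie inside the TPM total and take 5.93% of it in replicate 1 and 4.10% in replicate 2.

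Symbols, coding ends and coordinates came from GENCODE M21 (GRCm38) by identifier, which matched 42462 of 43346 genes and 73 of the 74 transcripts listed for the 10 genes, 63 of them with the deposited length. Expected counts were rounded and scaled by trimmed means in edgeR 4.0.16 (R 4.3.3) with a prior count of 0.5, for genes with a mean of 50 counts or more. Clopper-Pearson intervals (95%) cover counting error only and not the spread between pools. They treat counts as independent, which PCR copies are not, so they can be too narrow even for counting error. DESeq2 1.42.0 size factors, library totals and spike-in totals were alternative scalings. Other steps used Python 3.11.15, numpy 2.4.6, pandas 2.3.3, scipy 1.17.1 and matplotlib 3.10.9. The ratio step was tested on simulated data.

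The text names the 10 genes, their transcripts at 10% or more of the gene in either library, other layer genes, paralogs, and the highest and lowest genes of marker lists; Cux2-201, Cux2-203, Cux2-207 and Cux1-201 are named beside the rule, with their values already known. Some of the listed genes are not reported here. The genes and lists were chosen with earlier results of these data known.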

Additional observations from a re-analysis of the deposited data

How the results depend on the processing

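Deep minus upper on the log2(TPM + 1) scale was -0.35 and stayed within its SD with a pseudocount of 0.1 and with FPKM, and from -0.35 to -0.34 with either replicate left out. It was -0.55 with medians in place of means, -0.37 with posterior mean TPM, -0.080 with Bcl11a as deep, -0.94 with Bcl11a as upper, -0.38 without Bcl11b and Foxp2, and -0.28 on transcripts of 1000 nt or more. It changed sign to 1.59 with summed TPM, which adds unequal numbers of genes, and to 1.15 on transcripts with the end of the longest coding sequence. On those transcripts most of the fall in the upper layer mean came from Cux1. Both transcript sums were chosen after seeing the data. Spike-in totals put 1 gene, Zfpm2 at -1.09, past 2-fold, where trimmed means put 0. They gave the 10 genes a median log2 ratio of -0.63, against -0.08. With that scaling the median over all genes with a mean of 50 counts or more was -0.56. The share of all genes past 2-fold was not computed for it, so the count of 1 says nothing particular of these genes. The count at 10 TPM ran from 9 to 10 with either replicate left out. The posterior mean shares moved the leading transcript of Cux2 to 71.1% and of Foxp2 to 36.3%, and left 6 others within their SD. No paired analysis was possible because there is only 1 group. With 2 pools the SD is itself poorly known. Short transcripts whose bases lie inside longer ones rest on the model's split of shared reads.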

Other observations

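Paralogs of the 10 genes spanned a wide range. Tle5, a short Groucho family protein that lacks the repeat domain of Tle4, had 464.55 TPM in replicate 1 and 448.86 in replicate 2, the highest of 13 paralogs. Tle4 lay close to its full-length relatives, at 0.17 ± 0.02 against Tle1 and -0.08 ± 0.11 against Tle3 on the log2(TPM + 1) scale. Foxp2 was below Foxp1 by -1.57 ± 0.16, and Foxp1 had 102.44 TPM in replicate 1 and 97.15 in replicate 2. Eomes, the T-box factor of intermediate progenitors, had 14.99 TPM in replicate 1 and 20.72 in replicate 2, and Tbr1 stood above it by 1.09 ± 0.13. Tbx21, the T-box factor of T cells, had 0.31 TPM in replicate 1 and 0.29 in replicate 2, and Zfpm1, the blood paralog of Zfpm2, had 0.53 TPM and 0.35 TPM.

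Fezf1, which shares roles with Fezf2 in early forebrain and is made in hypothalamus, had 13.17 TPM in replicate 1 and 3.65 in replicate 2. Of the 10 paralogs with enough counts to compare, Fezf1 alone passed 2-fold, against 1.37% of all genes, with a log2 ratio of 1.86 after trimmed mean scaling, and Fezf2 had -0.14. Hypothalamus genes summed to 46.29 TPM in replicate 1 and 12.90 in replicate 2, and their part in the Fezf1 difference was not tested.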
